A study of Mus musculus with 8 samples.

Results

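The bile acid synthesis enzymes are 10 genes, Cyp7a1, Cyp8b1, Cyp27a1, Cyp7b1, Hsd3b7, Akr1d1, Amacr, Acox2, Baat and Slc27a5, taken by symbol from the 52636 genes of each count table. All 10 were found. They were compared in liver RNA of male wild-type C57BL/6J mice on the MASH diet, which is rich in fat, fructose and cholesterol and produces steatohepatitis. The 4 mice numbered 303, 311, 314 and 315 in the labels received AAV8-TBG-GFP, and the 4 numbered 308, 309, 316 and 319 received AAV8-TBG-AGXT, which encodes human AGXT, the peroxisomal enzyme that turns glyoxylate into glycine. Virus was given at 7 weeks of age, the diet began at 8 weeks of age and livers were taken after 24 weeks of it. TBG is a promoter active in hepatocytes, so both viruses act in those cells, and all 8 mice carried a virus and ate the same diet. No group on chow or without virus was analysed here. The transgene is human and the counts are on mouse genes, so they do not measure it.

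Bile acids are made from cholesterol in hepatocytes and are the main route by which the body disposes of it. The classical route opens with Cyp7a1, which hydroxylates the sterol ring and limits the rate, and the alternative route opens with Cyp27a1, which oxidizes the side chain, followed by Cyp7b1, which hydroxylates the ring of the resulting oxysterols. Hsd3b7 and Akr1d1 then modify the ring, Cyp8b1 adds the hydroxyl group that makes cholic acid, Amacr and Acox2 act on the side chain in peroxisomes, and Slc27a5 and Baat join the product to an amino acid, chiefly taurine in mice. When bile acids return to the liver they act through the receptor FXR to lower Cyp7a1 and Cyp8b1 expression, a feedback in which HNF4A and LRH-1 act as activators on the promoters.

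Promoter windows from RefSeq, on GRCm38.p6, were at hand for 5 of the 10 genes, each reaching from 250 bases before the start of transcription to 50 bases into the transcript. Those of Cyp8b1 (chr9:121916256-121916555, minus strand), Cyp27a1 (chr1:74713285-74713584, plus strand) and Acox2 (chr14:8258970-8259269, minus strand, the more upstream of the starts listed) are shown because Cyp8b1 had the widest difference between groups of the genes with a window and the other two genes had groups that lay apart. The Acox2 window lies inside the gene as annotated in GENCODE M21, which reaches up to 8259353 on this strand. Its RefSeq start is thus downstream of the start in that annotation. Capitals mark matches, on either strand, to any of 7 motifs.
Cyp8b1: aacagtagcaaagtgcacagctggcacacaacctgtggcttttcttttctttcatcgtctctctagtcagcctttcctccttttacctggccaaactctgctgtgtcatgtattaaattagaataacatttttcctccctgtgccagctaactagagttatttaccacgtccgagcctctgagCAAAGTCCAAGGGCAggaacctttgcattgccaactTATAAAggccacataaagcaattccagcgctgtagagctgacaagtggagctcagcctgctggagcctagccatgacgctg
Cyp27a1: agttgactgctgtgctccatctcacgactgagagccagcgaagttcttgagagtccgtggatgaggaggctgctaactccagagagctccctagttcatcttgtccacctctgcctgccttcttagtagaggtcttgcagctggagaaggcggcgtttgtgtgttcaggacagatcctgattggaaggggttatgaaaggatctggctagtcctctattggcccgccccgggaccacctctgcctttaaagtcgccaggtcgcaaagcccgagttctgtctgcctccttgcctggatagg
Acox2: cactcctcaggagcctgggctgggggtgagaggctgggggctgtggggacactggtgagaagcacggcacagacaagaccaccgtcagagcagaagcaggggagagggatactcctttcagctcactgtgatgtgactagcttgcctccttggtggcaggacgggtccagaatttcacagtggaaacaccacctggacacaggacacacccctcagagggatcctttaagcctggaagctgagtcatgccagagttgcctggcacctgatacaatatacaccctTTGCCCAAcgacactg
The letters searched were CAAAGTCCA for HNF4A and CAAGGNCA for LRH-1. For the direct repeat DR1, bound by several nuclear receptors, they were 2 copies of AGGNCA with 1 base between. The clock factors' D-box was searched as TTANGTAA and their E-box as CACGTG. For C/EBP they were TTGCNNAA, and for the TATA element TATAAA. The motifs were chosen after these sequences were seen. In the Cyp8b1 window the HNF4A and LRH-1 letters overlapped in 1 run of 15 bases, 67 to 53 bases before the start, and TATA letters stood 31 to 26 bases before it. HNF4A letters occurred in 0.475% of 32851 RefSeq windows of this length, LRH-1 letters in 6.71% and TATA letters in 13.6%. The Acox2 window held C/EBP letters, found in 10.8% of all windows, 34 to 41 bases after the start and so within the transcript. The Akr1d1 window held C/EBP letters 8 to 1 bases before the start. The windows of Cyp27a1 and Hsd3b7 held none of the 7. DR1, D-box and E-box letters were in none of the 5 windows, against 0.381%, 2.32% and 7.15% of all windows. A match is a run of letters, not a measured site.

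Each library held between 17095433 and 28780140 read pairs on genes, and 9 of the 10 enzymes passed the low-count filter, with at least 93 read pairs in every mouse. Values are CPM, counts brought to a common library size with TMM factors. A gene is called to rise or fall at an adjusted p under 0.05 in the quasi-likelihood test of edgeR, adjusted by Benjamini-Hochberg over the 15248 genes tested. After a log2 fold change, ± gives its SE. The enzymes as a group leaned toward higher expression in mice treated with AAV8-AGXT. All 9 had a log2 fold change above 0, from 0.25 to 1.71 with a median of 0.47, beside a median of 0.02 over all genes tested. Cyp7b1 and Slc27a5 rose, 7 did not pass and none fell, so 2 of 9 were called beside 4.35% of all genes tested, of which 2.45% rose and 1.9% fell. For 6 of the 9 every AAV8-AGXT mouse lay above every AAV8-GFP mouse, beside 8.93% of all genes tested with that order. The opposite order was met by 7.63% of all genes tested and either order by 16.6%. For Cyp7a1, Cyp8b1 and Akr1d1 the groups overlapped. The order was read with TMM factors, which were 1.02 to 1.14 in AAV8-GFP and 0.83 to 1.00 in AAV8-AGXT mice. With total counts in place of TMM, Cyp27a1, Amacr, Acox2 and Baat overlapped too, and only Cyp7b1 and Slc27a5 stayed apart. By DESeq2, 5 of the 9 rose, beside 14% of 15218 genes called in either direction and 7.08% called higher by that tool. The calls depended on single mice, since leaving out 1 mouse at a time gave between 0 and 2 called enzymes and between 2 and 643 called genes in all. None was called without AAV8-GFP mouse 311, AAV8-GFP mouse 314, AAV8-AGXT mouse 308 or AAV8-AGXT mouse 319. Without AAV8-GFP mouse 303 Cyp8b1 alone was called, and without AAV8-AGXT mouse 309 Slc27a5 alone. Of all genes called, 374 rose and 290 fell, a split that became 144 and 857 with total counts in place of TMM and 254 and 298 with upper-quartile factors. Total counts lowered the median of all genes to -0.22 and that of the enzymes to 0.24. A change of scaling shifts all genes by nearly the same amount. The distance between the medians, 0.46 with total counts and 0.45 with TMM, therefore does not test the lean.

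**Figure D1:**
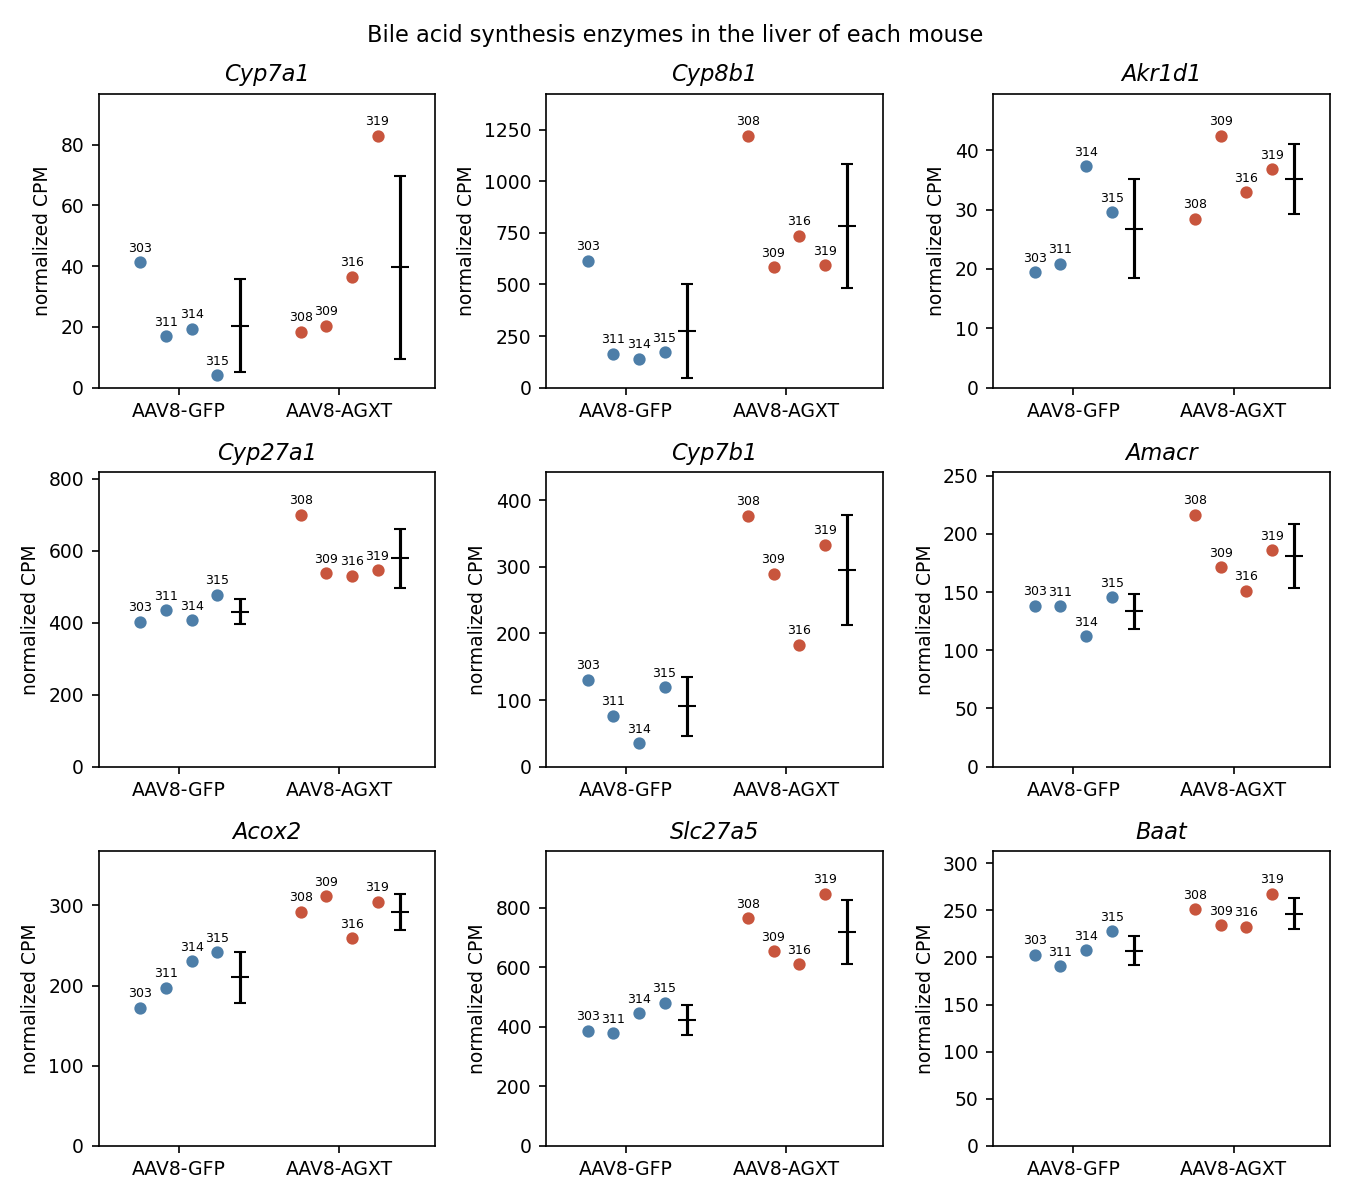
Normalized CPM (vertical axis of each panel, from 0) of the 9 enzymes that passed the low-count filter, with 1 point per mouse labelled by its number and the mean ± SD of each group of 4 as a bar beside the points. With TMM factors, AAV8-AGXT points lie above all AAV8-GFP points for Cyp27a1, Cyp7b1, Amacr, Acox2, Slc27a5 and Baat, whereas Cyp7a1, Cyp8b1 and Akr1d1 overlap.

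Cyp7a1 (ENSMUSG00000028240, chromosome 4, 6265612 to 6275633 on GRCm38), the rate-limiting enzyme of the classical route, ranged more widely within each group than the group means differed, at 20.4 ± 15.4 and 39.6 ± 30.1 CPM (SD, n = 4 each). It stood at 41.2, 17.02, 19.4 and 4.10 CPM in AAV8-GFP mice 303, 311, 314 and 315, and at 18.4, 20.4, 36.6 and 83.0 CPM in AAV8-AGXT mice 308, 309, 316 and 319. The highest AAV8-GFP value exceeded 3 of the 4 AAV8-AGXT values, and the coefficient of variation was 75.4% in AAV8-GFP and 75.9% in AAV8-AGXT mice. With all mice the fitted log2 fold change was 0.96 ± 0.63 (95% confidence interval -0.45 to 2.37; edgeR adjusted p = 0.364). Leaving out 1 mouse at a time moved it from 0.31, without AAV8-AGXT mouse 319, to 1.56, without AAV8-GFP mouse 303, and no fit passed.

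Cyp8b1 (ENSMUSG00000050445, chromosome 9, 121914356 to 121916305), a gene of a single exon whose product sets the share of cholic acid, had 1 AAV8-GFP mouse at the level of the other group. AAV8-GFP mice 303, 311, 314 and 315 had 615, 165, 140.3 and 172 CPM. AAV8-AGXT mice 308, 309, 316 and 319 had 1221, 582, 736 and 593 CPM. All AAV8-AGXT values lay above 3 of the 4 AAV8-GFP values, and mouse 303 lay above mice 309 and 319. With all mice the fitted log2 fold change was 1.52 ± 0.48 (edgeR adjusted p = 0.0883), and without mouse 303 it was 2.30 and passed (edgeR adjusted p = 0.0264). With any other mouse left out it lay between 1.20 and 1.64 and did not pass.

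Akr1d1 (ENSMUSG00000038641, chromosome 6, 37530173 to 37568815), which reduces the double bond of the ring, had 19.4, 20.9, 37.3 and 29.6 CPM in AAV8-GFP mice 303, 311, 314 and 315. In AAV8-AGXT mice 308, 309, 316 and 319 it had 28.4, 42.5, 33.0 and 36.8 CPM. The groups overlapped, with a log2 fold change of 0.39 ± 0.21 (edgeR adjusted p = 0.269). The pseudogene Gm7463 lies within Akr1d1 and the small nuclear RNA gene Gm23686 within Cyp7b1, neither sharing an exonic base with its host, with 15 to 51 and 0 to 2 read pairs per mouse. Hsd3b7 (ENSMUSG00000042289, chromosome 7, 127800604 to 127803802), the dehydrogenase that acts before it, was listed at 0 in all 8 mice. In GENCODE M21, 99.2% of its 2769 exonic bases also belong to Gm49388, on the same strand, or to 9430064I24Rik, on the opposite strand. Gm49388 was listed at 0 as well, and 9430064I24Rik had between 12 and 39 read pairs per mouse. HTSeq assigns a read pair that falls on several genes to none of them, and the strand setting of the counting is not given in the sources used here, and the 0 is not read as a level of Hsd3b7 expression.

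Cyp27a1, which opens the alternative route, and Cyp7b1, which follows it there, lay apart between the groups. Cyp27a1 (ENSMUSG00000026170, chromosome 1, 74713574 to 74737892) had 403, 434, 406 and 478 CPM in AAV8-GFP mice 303, 311, 314 and 315, and 701, 538, 531 and 546 CPM in AAV8-AGXT mice 308, 309, 316 and 319. Its log2 fold change of 0.43 ± 0.13 did not pass in edgeR (adjusted p = 0.0868) and did in DESeq2 (adjusted p = 0.0121). That was the only 1 of 16 alternatives in which it passed. With total counts in place of TMM its log2 fold change was 0.18 (edgeR adjusted p = 0.248). Without mouse 308, which stood well above the rest of its group, the log2 fold change was 0.31. Cyp7b1 (ENSMUSG00000039519, chromosome 3, 18071950 to 18243338) showed the largest fold change of the 9 enzymes. It had 131, 76.7, 34.8 and 119.6 CPM in AAV8-GFP mice and 376, 289.6, 183 and 333 CPM in AAV8-AGXT mice, in the same order of animals. The lowest AAV8-AGXT value, in mouse 316, was still above the highest AAV8-GFP value, in mouse 303. The group means were 90.5 ± 43.8 and 296 ± 82.8 CPM (SD, n = 4 each), a 3.27-fold difference and a log2 fold change of 1.71 ± 0.38 (edgeR adjusted p = 0.0425). With 1 mouse left out the log2 fold change stayed between 1.41 and 1.94, but the adjusted p from edgeR passed in only 2 of the 8 fits. It was 0.0556 without mouse 303, 0.149 without mouse 311, 0.0798 without mouse 314, 0.0819 without mouse 308, 0.0551 without mouse 309 and 0.0987 without mouse 319.

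The peroxisomal enzymes of the side chain differed by a similar amount. Amacr (ENSMUSG00000022244, chromosome 15, 10981756 to 10996626), the racemase that prepares the side chain for oxidation, had 138, 138, 112 and 146 CPM in AAV8-GFP mice 303, 311, 314 and 315, and 217, 171, 151 and 186 CPM in AAV8-AGXT mice 308, 309, 316 and 319. Acox2 (ENSMUSG00000021751, chromosome 14, 8225511 to 8259353), the branched-chain oxidase that starts the shortening of the chain, had 172, 197, 231 and 242 CPM in AAV8-GFP mice and 292, 311, 259 and 305 CPM in AAV8-AGXT mice. The groups lay apart for both genes, though the gap was narrow, 146 against 151 CPM for Amacr and 242 against 259 CPM for Acox2. Their log2 fold changes were 0.44 ± 0.14 and 0.47 ± 0.14, at edgeR adjusted p = 0.0852 and 0.0736. Both passed in DESeq2, at adjusted p = 0.03 and 0.011, and in no other of the 16 alternatives. With total counts in place of TMM the log2 fold changes were 0.19 and 0.24 (edgeR adjusted p = 0.242 and 0.22).

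Of the conjugating enzymes, Slc27a5 rose and Baat did not pass. Slc27a5 (ENSMUSG00000030382, chromosome 7, 12988346 to 12998192), the bile acyl-CoA synthetase that also takes up fatty acids, had 387, 377, 446 and 480.2 CPM in AAV8-GFP mice 303, 311, 314 and 315, and 764, 653, 611 and 848 CPM in AAV8-AGXT mice 308, 309, 316 and 319. Group means were 423 ± 48.8 and 719 ± 108 CPM (SD, n = 4 each), a 1.70-fold difference and a log2 fold change of 0.77 ± 0.15 (edgeR adjusted p = 0.0344). With 1 mouse left out the log2 fold change stayed between 0.68 and 0.84 and the adjusted p from edgeR passed in 3 of the 8 fits. It was 0.067 without mouse 303, 0.13 without mouse 311, 0.0862 without mouse 314, 0.0622 without mouse 308 and 0.0885 without mouse 319. Baat (ENSMUSG00000039653, chromosome 4, 49489422 to 49506557), which attaches taurine or glycine, was the steadiest enzyme within AAV8-GFP and within AAV8-AGXT mice, with coefficients of variation of 7.50% and 6.72%. It had 203, 191, 208 and 228 CPM in AAV8-GFP mice and 252, 234, 233 and 268 CPM in AAV8-AGXT mice, so the groups lay apart by a small margin. Its log2 fold change of 0.25 ± 0.11 (95% confidence interval 0.0088 to 0.49; edgeR adjusted p = 0.178) did not pass, and it was 0.01 with total counts in place of TMM.

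**Figure D2:**
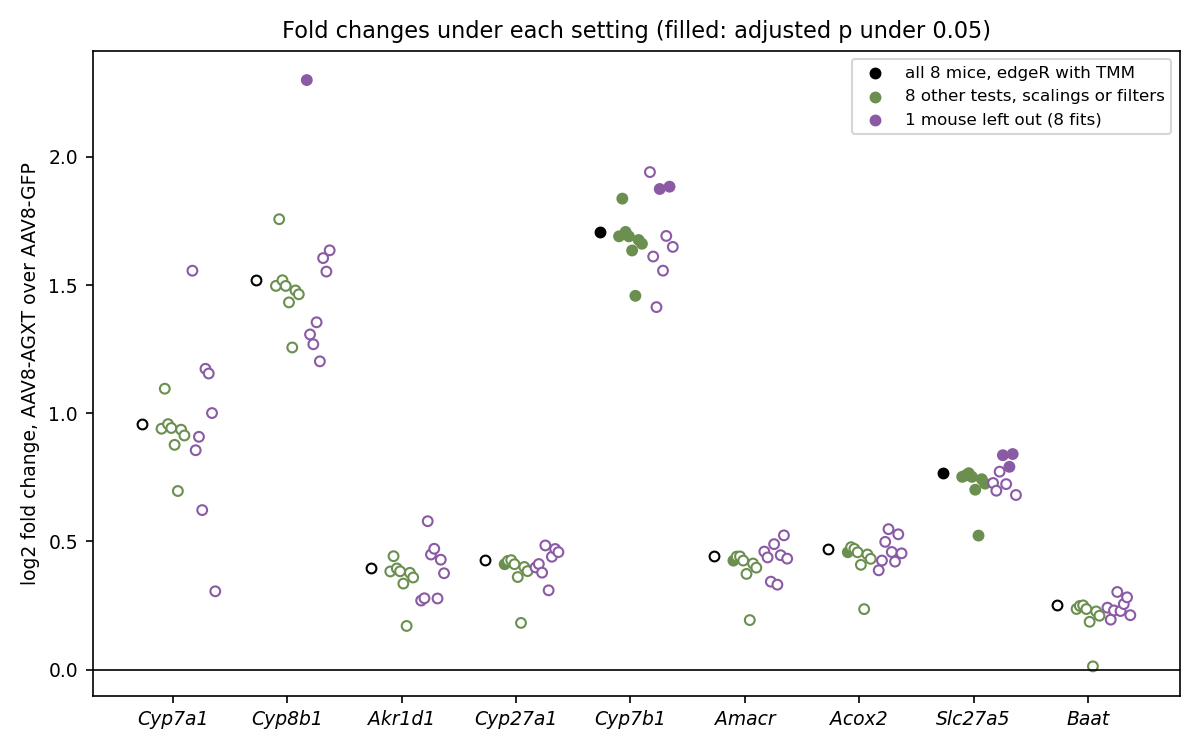
Log2 fold change of AAV8-AGXT over AAV8-GFP (vertical axis) for the 9 enzymes with all 8 mice, under 8 other tests, scalings or filters, and with each mouse left out in turn, where filled points passed an adjusted p of 0.05. Every point lies above 0, filled points are limited to Cyp7b1 and Slc27a5 apart from 1 fit each for Cyp8b1, Cyp27a1, Amacr and Acox2, and Cyp7a1 spreads most, from 0.31 to 1.56.

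Per kilobase of exon, the order of levels in AAV8-GFP mice ran from Cyp27a1 at 198 ± 15.9 CPM per kilobase (SD, n = 4) through Slc27a5 at 173 ± 20.04, Cyp8b1 at 140.1 ± 117, Baat at 107 ± 8.01, Acox2 at 56.8 ± 8.59, Amacr at 51.2 ± 5.68 and Cyp7b1 at 41.8 ± 20.2 to Akr1d1 at 9.26 ± 2.88 and Cyp7a1 at 4.90 ± 3.69. The mean ± SD ranges of neighbours in this order met, except between Baat and Acox2 and between Cyp7b1 and Akr1d1. In AAV8-AGXT mice Cyp8b1 came first, at 402 ± 154 CPM per kilobase (SD, n = 4), followed by Slc27a5 at 295 ± 44.1, Cyp27a1 at 266 ± 37.5, Cyp7b1 at 136 ± 38.2 and Baat at 127 ± 8.54. Acox2 at 78.8 ± 6.23, Amacr at 69.6 ± 10.6, Akr1d1 at 12.2 ± 2.06 and Cyp7a1 at 9.49 ± 7.20 CPM per kilobase closed the order. Here the ranges of neighbours met except between Cyp27a1 and Cyp7b1, between Baat and Acox2 and between Amacr and Akr1d1. By mean level per kilobase the rate-limiting Cyp7a1 came last in both groups, with a mean ± SD range that met that of Akr1d1 in each. Without the correction for length, its mean in AAV8-AGXT mice, 39.6 CPM, was above the 35.2 CPM of Akr1d1. Among AAV8-AGXT mice, mouse 316 had the lowest level of 6 of the 9 enzymes, and those were the 6 whose groups lay apart. Among AAV8-GFP mice, mouse 315 had the highest level of 5 of the 9 but the lowest of Cyp7a1, and mouse 303 had the highest of Cyp7a1, Cyp8b1 and Cyp7b1.

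Enzymes were set against Cyp7a1 within each liver, where depth and scaling cancel. Cyp27a1 opens the alternative route but is not confined to it, Cyp7b1 follows it there, and Cyp8b1 acts in making cholic acid. The ratios are therefore not read as the balance of routes. All 3 carry the spread of Cyp7a1, whose coefficient of variation was 75.4% in AAV8-GFP and 75.9% in AAV8-AGXT mice. The log2 ratio of Cyp8b1 to Cyp7a1 read pairs was 3.85 ± 1.11 in AAV8-GFP and 4.51 ± 1.33 in AAV8-AGXT mice (SD, n = 4 each), a difference of 0.66 (two-sided exact permutation test, p = 0.514, adjusted over the 3 ratios 0.571). For Cyp7b1 to Cyp7a1 it was 2.39 ± 1.74 and 3.13 ± 1.14 (SD, n = 4 each), a difference of 0.74 (two-sided exact permutation test, p = 0.514, adjusted 0.571). For Cyp27a1 to Cyp7a1 it was 4.80 ± 1.49 and 4.13 ± 1.10 (SD, n = 4 each), a difference of -0.67 (two-sided exact permutation test, p = 0.571, adjusted 0.571). The differences were smaller than the spread between mice in all 3 ratios, and the smallest p that 4 against 4 allow is 0.0286. The ratios were highest in AAV8-GFP mouse 315, the mouse with least Cyp7a1, for Cyp7b1 (4.86) and Cyp27a1 (6.86), and in AAV8-AGXT mouse 308 for Cyp8b1 (6.05). Without mouse 315 the difference of the Cyp27a1 ratio was 0.02, and those of the Cyp8b1 and Cyp7b1 ratios were 1.17 and 1.57.

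**Figure D3:**
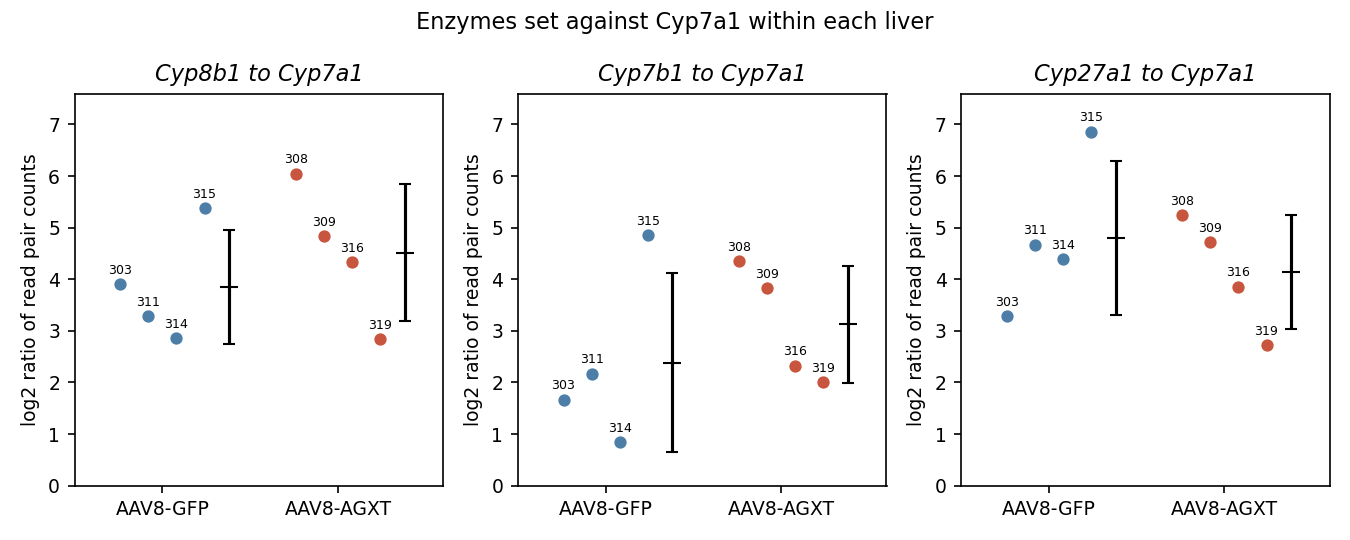
Log2 ratio of the read pair counts of Cyp8b1, Cyp7b1 and Cyp27a1 to those of Cyp7a1 (vertical axis), with 1 point per mouse and the mean ± SD of each group of 4 as a bar. The groups overlap in all 3 panels.

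A further 20 genes of the pathway, its side branches and its carriers were listed, and 19 were tested. Of these 3 rose, none fell and 16 did not pass, with a median log2 fold change of 0.36. Among all genes tested 2.45% rose. The groups lay apart in 8 of the 19, each time with AAV8-AGXT mice higher, beside 8.93% of all genes tested. Por, the reductase that passes electrons to microsomal P450 enzymes such as Cyp7a1, Cyp8b1 and Cyp7b1, rose from 254 ± 36.3 to 632 ± 160.6 CPM (SD, n = 4 mice per group; log2 fold change 1.32 ± 0.20, edgeR adjusted p = 0.0246). Sult2a8, a liver sulfotransferase that acts on bile acids in mice, rose from 165 ± 71.4 to 556 ± 102 CPM (SD, n = 4 mice per group; log2 fold change 1.75 ± 0.31, edgeR adjusted p = 0.0304). Abcd3, which carries bile acid intermediates into the peroxisome, rose from 346 ± 36.1 to 587 ± 121 CPM (SD, n = 4 mice per group; log2 fold change 0.76 ± 0.16, edgeR adjusted p = 0.0376). Cyp2c70, which makes muricholic acids in mice, did not pass and had the lowest fold change of the 19 (129 ± 35.4 and 92.9 ± 28.3 CPM, SD, n = 4 each; log2 fold change -0.48, edgeR adjusted p = 0.267). Cyp2a12, which restores a hydroxyl group that gut bacteria remove, did not pass either (log2 fold change 0.28, edgeR adjusted p = 0.282). With 1 mouse left out, between 0 and 4 of the 19 were called, and Por passed in 5 of the 8 fits, Sult2a8 in 4 and Abcd3 in 2. With total counts 2 of the 19 were called and their median was 0.11.

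**Figure D4:**
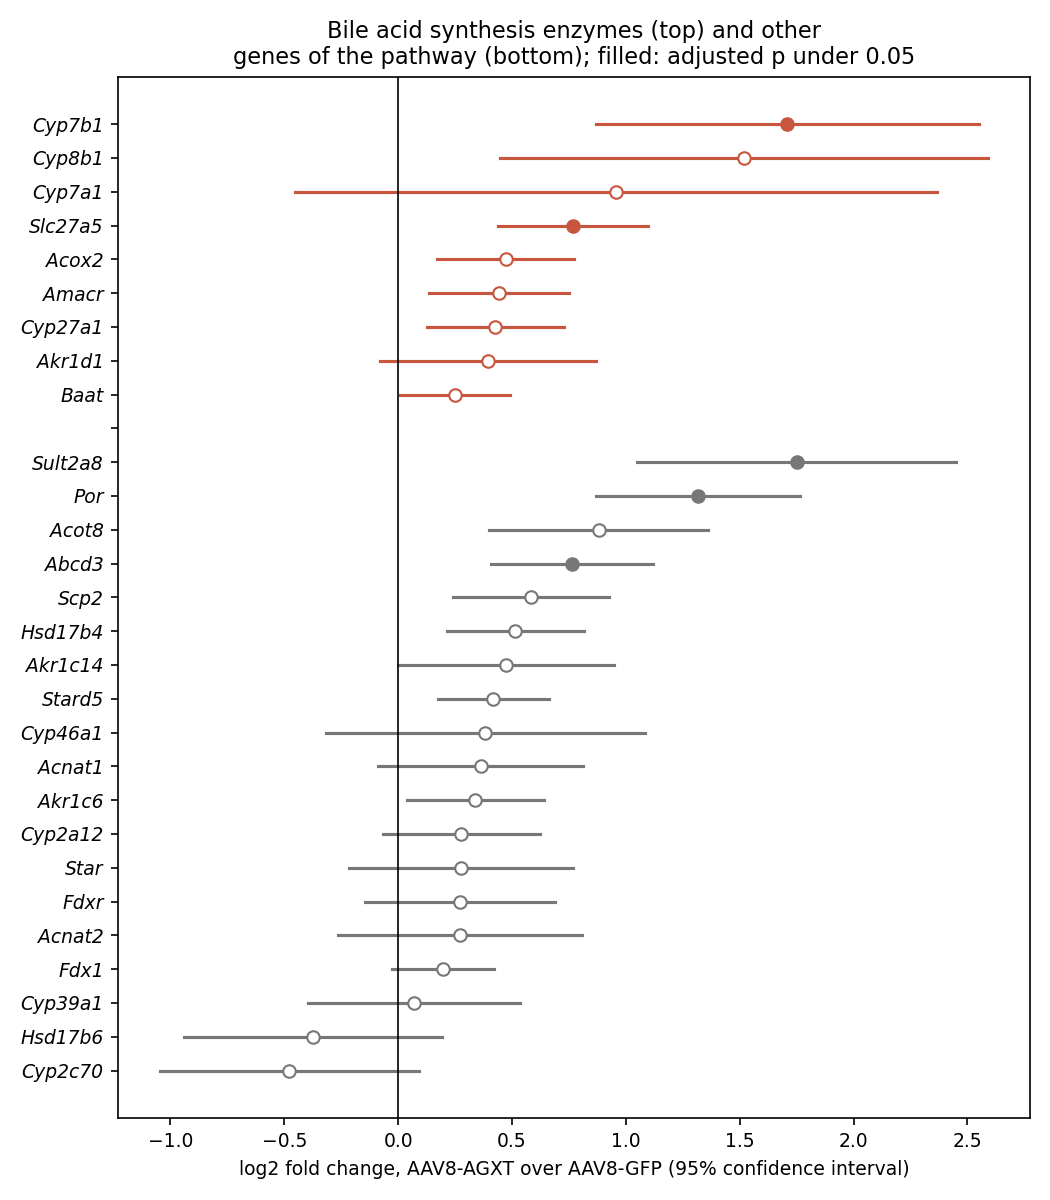
Log2 fold change of AAV8-AGXT over AAV8-GFP (horizontal axis) with its 95% confidence interval for the 9 tested enzymes (top) and 19 further genes of the pathway (bottom), where filled points passed an adjusted p of 0.05. Cyp7b1 and Slc27a5 are filled above, Sult2a8, Por and Abcd3 below, and the interval of Cyp7a1 is the widest shown.

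Of all genes tested, 2.45% rose and 1.9% fell. Of 23 regulators of bile acid synthesis, 3 rose, none fell and 20 did not pass, with a median log2 fold change of 0.35. With total counts 1 was called and the median was 0.10, and with 1 mouse left out between 0 and 3 were called. Ppara, the fatty acid receptor, Cebpa, a hepatocyte transcription factor, and Klb, the co-receptor through which intestinal FGF15 acts on hepatocytes, had log2 fold changes of 0.89, 0.50 and 0.87 (edgeR adjusted p = 0.0376, 0.0429 and 0.0444), and passed in 2, 1 and 1 of the 8 fits with a mouse left out. Hnf4a, which encodes HNF4A, had 551 ± 61.9 and 758 ± 73.9 CPM, and Nr5a2, which encodes LRH-1, had 37.9 ± 7.80 and 52.8 ± 3.91 CPM (SD, n = 4 each). Their groups lay apart, but neither passed (log2 fold change 0.46 and 0.48, edgeR adjusted p = 0.0765 and 0.0795). Nr1h4, which encodes FXR, and Nr0b2, the repressor SHP that FXR induces, overlapped between groups (log2 fold change 0.35 and -0.22, edgeR adjusted p = 0.226 and 0.794). Nr0b2 spread widely, from 28.1 to 134.7 CPM in AAV8-GFP and from 43.8 to 105.6 CPM in AAV8-AGXT mice. Among 14 bile acid transporters 13 were tested, of which 3 rose and 1 fell, with a median log2 fold change of 0.21 that became -0.02 with total counts. Slc10a1, the sodium-dependent uptake carrier, and Slco1b2 rose by 0.96 and 0.75 on the log2 scale and Slco1a1 by 1.78 (edgeR adjusted p = 0.0246, 0.0304 and 0.0456). Slc51b, a subunit of an export carrier, was scarce and fell by 2.25 on the log2 scale, from 1.94 ± 0.60 to 0.39 ± 0.29 CPM (SD, n = 4 each, edgeR adjusted p = 0.0413), and Slc51a was listed at 0 in every mouse. With 1 mouse left out between 0 and 3 of the 13 were called, and Slc10a1 passed in 5 of the 8 fits, Slco1b2 in 4, and Slco1a1 and Slc51b in 1 each.

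Other gene groups were compared beside the enzymes, and for each of them at least 1 fit with a mouse left out called none of its members. Over all genes tested, 2.45% rose and 1.9% fell. Cyp7a1 is expressed rhythmically over the day, and of 17 clock genes 5 rose, none fell and 12 did not pass in edgeR. DESeq2 called 8 higher and 4 lower, beside 14% of all genes called in either direction by that tool. The groups lay apart in 11 of the 17, with 7 higher and 4 lower in AAV8-AGXT mice, beside 8.93% and 7.63% of all genes tested. Bhlhe41, Hlf, Ciart and Tef had log2 fold changes of 1.78, 0.88, 2.73 and 1.17 (edgeR adjusted p = 0.0137, 0.0278, 0.0349 and 0.0429), and passed in 6, 5, 4 and 2 of the 8 fits with a mouse left out. Among the 4 lower genes were Npas2, at 7.66 to 15.3 CPM in AAV8-GFP and 1.51 to 5.65 CPM in AAV8-AGXT mice, and Arntl, at 12.2 to 16.4 and 4.01 to 10.8 CPM, neither of which passed (log2 fold change -1.46 and -0.83, edgeR adjusted p = 0.0546 and 0.0843). The hour at which livers were taken is not given in the sources used here, and the part of the clock genes in the enzymes' values was not tested. Cyp7b1 is more abundant in male than in female mouse liver, and of 10 other male-biased genes 2 rose and 8 did not pass, with a median log2 fold change of 0.70. Hsd3b5 rose from 2.32 ± 2.56 to 30.5 ± 12.5 CPM (SD, n = 4 mice per group; log2 fold change 3.73, edgeR adjusted p = 0.0341), and the other was the transporter Slco1a1. The part of this group in the rise of Cyp7b1 was not tested. Of 10 pericentral hepatocyte markers, from the zone where Cyp7a1 is mainly expressed, 3 rose and 7 did not pass, with a median of 0.77 and a summed level of 8224 to 10154 CPM in AAV8-GFP and 16234 to 21461 CPM in AAV8-AGXT mice. These were Cyp2e1, Oat and Slc1a2, with log2 fold changes of 1.15, 1.48 and 1.37 (edgeR adjusted p = 0.0198, 0.0246 and 0.0246). Of 10 periportal markers 1 rose, the urea cycle enzyme Arg1 (log2 fold change 0.62, edgeR adjusted p = 0.049), with a median of 0.45.

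In whole liver, fewer cells of a type and less RNA per cell cannot be told apart. The counts of called markers below stand beside 2.45% of all genes tested that rose and 1.9% that fell. Albumin, the main secreted product of hepatocytes, was among the 9 hepatocyte markers found, of 10 listed, with 25931 to 34525 CPM of Alb in AAV8-GFP and 32356 to 43389 CPM in AAV8-AGXT mice. The 9 summed to between 52341 and 63241 CPM in AAV8-GFP and between 60181 and 82706 CPM in AAV8-AGXT mice. None of the 9 passed, and their median log2 fold change was 0.39, close to the 0.47 of the bile acid enzymes, with Apoh having the smallest p (log2 fold change 0.48, edgeR adjusted p = 0.0874). The 8 cholangiocyte markers summed to 256 to 721 CPM in AAV8-GFP and 107 to 306 CPM in AAV8-AGXT mice, with a median of -1.24 and none called (Spp1, log2 fold change -1.62, edgeR adjusted p = 0.0704). The 13 macrophage markers summed, in the same order of groups, to 709 to 1203 and 299.7 to 1160 CPM, with a median of -0.87 and none called (Cd14, log2 fold change -1.08, edgeR adjusted p = 0.061). They went both ways, with 9 log2 fold changes below 0 and 4 above (2 above with total counts). The groups lay apart in 3 that were lower and 1 that was higher, beside 7.63% and 8.93% of all genes tested. The last was the scavenger receptor Marco, at 0.55 to 5.65 CPM in AAV8-GFP mice (log2 fold change 3.63, edgeR adjusted p = 0.0801). In AAV8-AGXT mice 308, 309 and 316 it had 5.94, 12.4 and 10.4 CPM, and in mouse 319 it had 156 CPM. Cd163, a macrophage scavenger receptor outside the list, rose from 1.10 ± 0.39 to 16.2 ± 12.6 CPM (SD, n = 4 mice per group; log2 fold change 3.88, edgeR adjusted p = 0.0236). The 12 stellate cell and fibroblast markers summed to 657 to 1118 and 346 to 758 CPM, with a median of -0.59 and 1 called, Acta2, the smooth muscle actin of activated stellate cells (log2 fold change -0.99, edgeR adjusted p = 0.0427). Acta2 passed in 0 of the 8 fits with a mouse left out. No marker of these cell types was at 0 in all mice. The part of these cells in the enzymes' values was not tested.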

How the data were processed

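Liver RNA of 8 mice was sequenced as stranded mRNA libraries, 1 per mouse. According to the methods and the submitters' processing notes, the authors used Trimmomatic 0.35 for trimming, HISAT2 2.1.0.13 for alignment to GRCm38 and HTSeq for counting on Ensembl genes. The deposited values are raw counts, not normalized. The strand and overlap settings are not given in the sources used here. Between 30.9% and 43.7% of tallied read pairs per mouse were not assigned to any gene and were left out. Pairs without a unique alignment were the largest part, from 17.4% in mouse 314 to 23.4% in mouse 308. Pairs that fell on several genes were also among them. Of 52636 genes, 52403 were matched to GENCODE M21, which gave symbols, positions and exonic length.

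Counts were analysed in R 4.3.3 with edgeR 4.0.16 (filterByExpr, TMM, quasi-likelihood test, treatment as the only term) and adjusted by Benjamini-Hochberg over 15248 genes. The threshold for a call was an adjusted p of 0.05. Log2 fold changes used a prior count of 0.125, and standard errors (SE) were derived from each coefficient and its F statistic. Log2 ratios used counts plus 0.5. Fits with DESeq2 1.42.0, limma-voom (limma 3.58.1), robust estimation, other scalings, other filters and each mouse left out served as alternatives. The study's methods name DESeq2 for this comparison. The DESeq2 fit here called more genes than the study reported, with a different split between higher and lower. The edgeR steps were tested on simulated data.

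The members, the gene lists and the motifs were chosen with earlier results of these data known. Named were all 10 enzymes and, from each other list, up to 4 called genes of smallest p, or the 1 of smallest p where none passed, and 6 genes chosen for their role (Nr1h4, Nr0b2, Nr5a2, Hnf4a, Cyp2c70 and Cyp2a12). Alb, Npas2, Arntl, Marco, Cd163, Saa1 and Itih4 were added after their values were seen. Groups came from the sample labels, and at this depth the spread between mice, 23.3% as the common biological coefficient of variation, limits the precision.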

Additional observations from a re-analysis of the deposited data

Results flagged for a closer look

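Among 24 groups of 4 values, those of the 9 enzymes and the 3 ratios in AAV8-GFP and in AAV8-AGXT mice, 2 had a mouse far from the other 3 by Dixon's criterion, which chance meets in about 1 group in 20. AAV8-GFP mouse 303 had 615.3 CPM of Cyp8b1, where the other AAV8-GFP mice had 140.3 to 171.8 CPM. AAV8-AGXT mouse 308 had 700.8 CPM of Cyp27a1, where the other AAV8-AGXT mice had 531.0 to 545.8 CPM. In mouse 308, 56.3% of tallied read pairs were assigned to a gene, beside 62.4% to 64.8% in the other AAV8-AGXT mice.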

How the results depend on the processing

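Of 144 values of single enzymes under the alternatives, 129 kept direction and side of the threshold, 11 lost and 4 gained significance, and none reversed. The number of called enzymes was 2 in edgeR and 5 by DESeq2, and ranged from 0 to 2 with 1 mouse left out. The number of called genes was 664 in edgeR, 2131 by DESeq2 and 1001 with total counts, and ranged from 2, without mouse 311, to 643 with 1 mouse left out. With 1 mouse left out, the difference of the Cyp8b1 to Cyp7a1 ratio ranged from 0.15 to 1.22, that of Cyp7b1 to Cyp7a1 from 0.23 to 1.57 and that of Cyp27a1 to Cyp7a1 from -1.17 to 0.0175, reversing without mouse 315. The cause was not tested, though DESeq2 works on the same counts and genes, and leaving out a mouse leaves 3 in its group. A pseudocount of 5 left the ratios within 0.02 of their values. No paired analysis was possible because the mouse numbers are not shared between groups. The lowest count behind a tested enzyme was 93 read pairs, of Cyp7a1 in mouse 315.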

Other observations

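Other lists bear on the livers as a whole, and their counts stand beside 2.45% of all genes tested that rose and 1.9% that fell. Of 12 acute phase genes none was called, with a median log2 fold change of -0.01 and Crp having the smallest p (log2 fold change 0.49, edgeR adjusted p = 0.103). Their summed level ran from 12277 to 18718 CPM in AAV8-GFP and from 10153 to 28798 CPM in AAV8-AGXT mice. For some of these genes mouse 319 stood far above the other AAV8-AGXT mice. It had 3221 CPM of Saa1 beside 108 to 320 CPM, and 3629 CPM of Itih4 beside 823 to 873 CPM. Of 10 endothelial cell markers none was called, with a median of 0.23 (Dnase1l3, log2 fold change 0.53, edgeR adjusted p = 0.28). Of 10 lymphocyte markers none was called, with a median of -0.58, and Cd8a, a subunit of the cytotoxic T cell co-receptor, had the smallest p (log2 fold change -2.06, edgeR adjusted p = 0.0697). Of 10 female-biased liver genes 4 passed the low-count filter, of which Cyp2c40 rose from 0.93 ± 0.44 to 4.61 ± 2.75 CPM and Cyp2a4 fell from 2.11 ± 0.66 to 0.40 ± 0.33 CPM (SD, n = 4 each, edgeR adjusted p = 0.0376 and 0.0375).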
